A study of Mus musculus with 6 samples.

Results

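The genes described here are 6 matrix metalloproteinases (Mmp2, Mmp3, Mmp8, Mmp9, Mmp12 and Mmp14) and the 4 tissue inhibitors of metalloproteinases (Timp1, Timp2, Timp3 and Timp4). They were taken by gene symbol as proteases of the infarct and their inhibitors, 10 of the 26012 genes in the table, and all 10 passed the filter on low values (a mean normalized count of at least 1), as did 21126 genes in all. RNA was sequenced from the ventricles of 6 C57BL/6 mice, all male and 8 weeks old when the left anterior descending coronary artery was ligated to give a myocardial infarction (MI). In the same operation 3 hearts received an intra-cardiac injection of control mimic and 3 received miR-19a/19b mimics, 10 μg per heart. Mimics are synthetic duplexes that stand in for a mature miRNA. All hearts were taken on day 4 after MI, so both groups share the infarct, the surgery and the injection, and hearts without MI were not analysed here.

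Matrix metalloproteinases are secreted or membrane-bound proteases that depend on zinc and cut collagen, gelatin, elastin and other matrix proteins. They are made as inactive proenzymes, and the Timps block the active enzymes by binding to the catalytic site. After MI, neutrophils, macrophages and fibroblasts release these enzymes while the dead muscle is cleared and a scar is laid down, and the balance between proteases and inhibitors is known to bear on wall thinning and rupture.

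The mimics are copies of a pair of miRNAs that differ at 1 base, and both are shown because their shared seed (bases 2 to 8, in capitals) is what a target transcript is read by. The mature sequences are those of RefSeq on GRCm38.p6, with 1 listed location given here for each. These are on the plus strand of chromosome 14, chr14:115044048-115044070 for miR-19a-3p and chr14:115044358-115044380 for miR-19b-3p.
mmu-miR-19a-3p: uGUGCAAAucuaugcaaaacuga
mmu-miR-19b-3p: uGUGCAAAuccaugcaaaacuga

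Matches to this seed were searched in the longest 3' UTR that GENCODE M21 annotates for each gene, as the letters TTTGCACA (8-mer), TTTGCAC or TTGCACA (7-mers). Among the tested genes with a 3' UTR, 15867 in all, 19.3% held at least 1 match and 5.81% held the 8-mer. Of the 10 members 3 held a match (Timp2, Timp3 and Mmp14) and 1 held the 8-mer (Timp2). The other 7 members had none in these letters. The sites are printed in the sense of the transcript with 10 bases on either side and the match in capitals, to show where a mimic could pair with a member of the set.
Timp2, base 924 of a 3' UTR of 2630 bases (GRCm38, minus strand, chr11:118302768-118302775): cactccctctTTTGCACAaactgatgat
Timp2, base 1854 (minus strand, chr11:118301839-118301845): agcattagacTTTGCACttttaaaaaa
Timp3, base 1309 of 3604 (plus strand, chr10:86347211-86347217): aaaggggcagTTGCACAgtggaatgac
Timp3, base 1582 (plus strand, chr10:86347484-86347490): tgagagtgtaTTGCACAgagttggaga
Mmp14, base 1000 of 1328 (plus strand, chr14:54445036-54445042): ggacagccagTTTGCACcctttgcttc
The Mmp14 site lies past the end of the gene at 54441265 that the deposited table lists, in a longer transcript of GENCODE M21. Whether any of these sites was bound was not measured, and the fold changes of the 3 genes are given with the others.

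Between 19398196 and 23645308 reads were counted on genes in each heart, and the values are normalized counts, each gene's reads divided by a size factor of the library. A member rested on at least 95 reads in any heart (Mmp8) and on up to 22935 (Mmp14). Myh6, the main myosin of mouse heart muscle, was between 98566 and 342540 normalized counts. In miR-19a/19b mimic replicate 3, the summed level per kilobase of 8 cardiomyocyte markers was 92840, against 263400 and 233800 in mimic replicates 1 and 2 and between 151900 and 197200 in the control hearts. In mimic replicate 1, 8 skeletal muscle genes summed to 1011 per kilobase, against 15.3 to 37.6 in the other hearts, led by Mylpf (677 normalized counts against 11.3 to 28.5) and Actn3 (397 against 7.81 to 26.8). Results that rest on mimic replicate 3 are given with and without it.

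The set was dominated by a few genes, and the order was much the same in every heart. Levels are compared between genes as normalized counts per kilobase of the gene length in the table, averaged over the 6 hearts. This length ran from 888 bases for Timp1 to 8144 for Timp3, and the order between genes depends on it. The lengths of the transcripts expressed were not measured. Timp1 was the highest at 6706 per kilobase (4776 to 8486 over the hearts), above 99.4% of the tested genes. Mmp14 followed at 3186 (2659 to 4612) and then Mmp2 at 2053 (1650 to 2313). The ranges of these 3 genes did not overlap. Timp2, at 1915 (1676 to 2133), could not be separated from Mmp2, which was the higher of the pair in 5 of 6 hearts. Timp3 lay below them at 443 (275 to 544) and above Mmp3 at 195 (113 to 269). From Mmp3 downwards, neighbours in the order overlapped: Mmp9 was at 161 (87.9 to 294), Mmp12 at 90.4 (67.0 to 122), Timp4 at 85.7 (37.4 to 137) and Mmp8 at 74.1 (41.7 to 107).

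Summed per kilobase, Mmp14 and Mmp2 made up between 88.4% and 94.2% of the transcripts of the 6 proteases, and Timp1 between 64.2% and 78.9% of those of the 4 inhibitors. Timp4 was between 0.362% and 1.84% of the inhibitors. The summed inhibitors exceeded the summed proteases in every heart. The ratio was 1.87, 1.60 and 1.48 in control mimic replicates 1, 2 and 3 and 1.39, 1.94 and 1.36 in the miR-19a/19b mimic hearts, in the order of their replicate numbers. The groups overlapped, with the highest and the lowest ratio both in mimic hearts. This ratio counts transcripts and says nothing of protein or of enzyme activity.

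**Figure D1:**
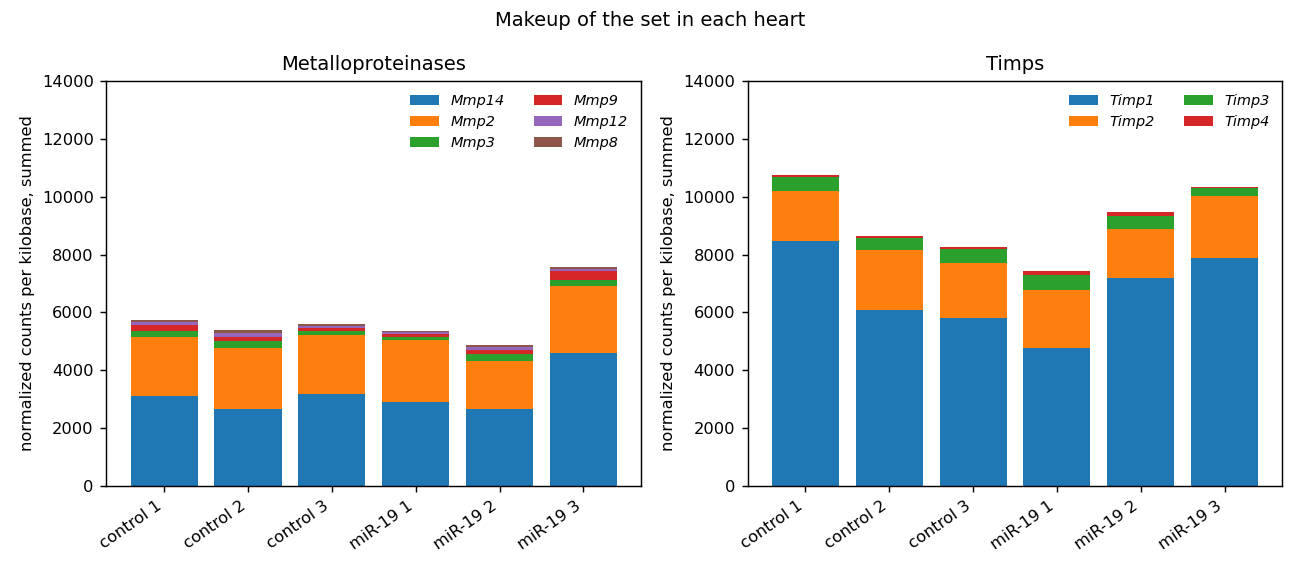
Stacked bars of normalized counts per kilobase for the 6 metalloproteinases (left) and the 4 Timps (right) in each of the 6 hearts, with a linear axis from 0. Mmp14 and Mmp2 fill most of each left bar and Timp1 and Timp2 most of each right bar, and miR-19a/19b mimic replicate 3 has the tallest left bar at 7582 per kilobase against 4873 to 5748 in the other hearts.

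No member was called different between miR-19a/19b mimic and control mimic hearts. In limma on log2(normalized count + 1), over 21126 genes, 0 genes were called lower and 0 higher at an adjusted p-value under 0.05 (0% each way), and the adjusted p-value was 0.9996 for each of the 10 members. At an unadjusted p-value under 0.05, 2.63% of the tested genes were lower and 1.39% higher, and 0 of the 10 members were among them. Normalized counts of the 2 groups were fully separate for 9.2% of the tested genes (5.3% with the mimic hearts lower, 3.9% with them higher) and for 0 of the 10 members. The fold changes of the members lay between -0.51 (Mmp8) and 0.37 (Timp4) on the log2 scale, 7 of them below 0 and 3 above, with a median of -0.04 beside 0.00 over all genes tested. On recovered reads, the Wald test of DESeq2 called 27 genes lower (0.184%) and 1 higher (0.0068%) of the 14702 to which it gave an adjusted p-value, and 0 members. At its unadjusted p-value under 0.05 were 1.58% of 25630 genes lower and 0.679% higher, again with 0 members. The exact test of edgeR called 28 lower (0.133%) and 2 higher (0.00947%), with 2.39% and 1.53% at an unadjusted p-value under 0.05 and 0 members among any of these. The quasi-likelihood test of edgeR called 0 genes either way, with 522 lower and 315 higher at an unadjusted p-value under 0.05 and 0 members among them.

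**Figure D2:**
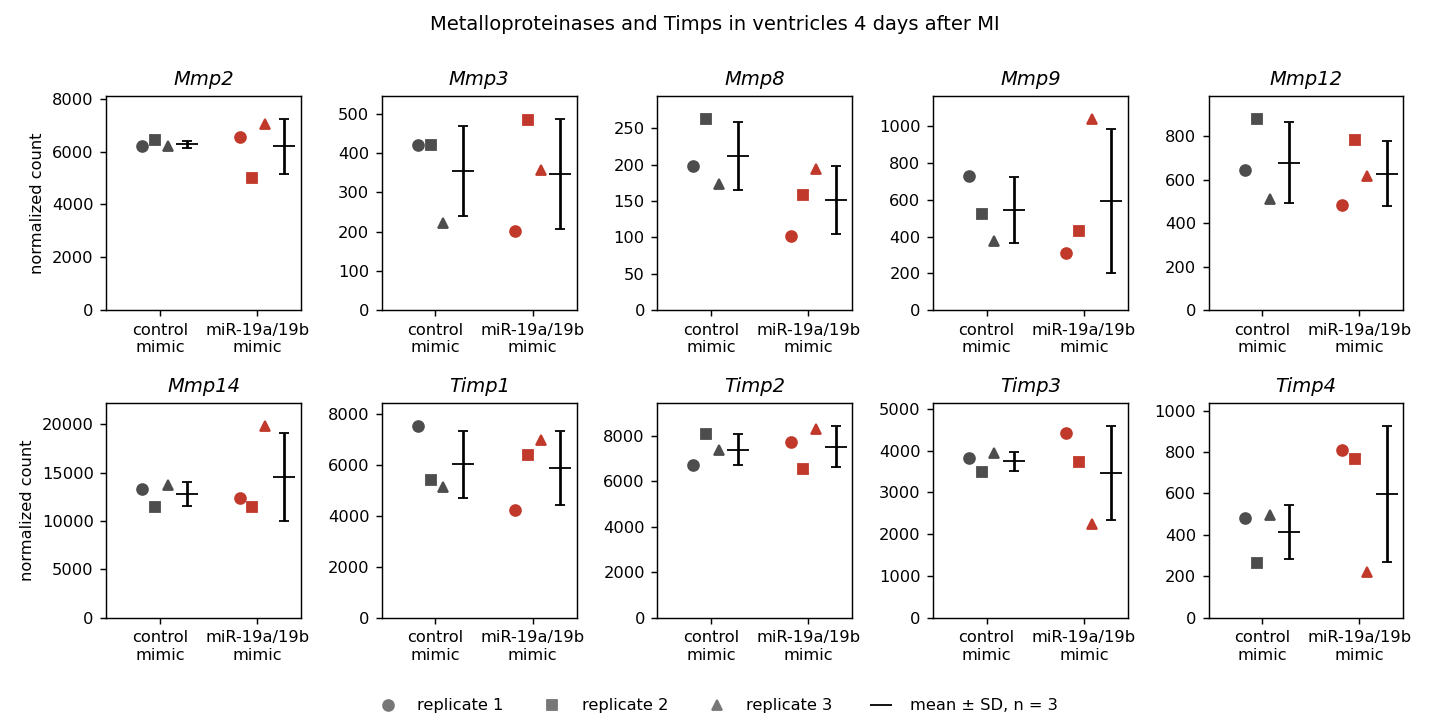
Normalized counts (linear axis from 0) of each member in the 3 control mimic hearts (grey) and the 3 miR-19a/19b mimic hearts (red), with the marker shape giving the replicate number and the bar the mean ± SD of 3 hearts. The groups overlap in every panel, and mimic replicate 3 is the highest heart for Mmp2, Mmp9, Mmp14 and Timp2 and the lowest for Timp3 and Timp4.

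Mmp2 and Mmp14 act together at the surface of fibroblasts, where Mmp14 (also called MT1-MMP, a membrane-bound collagenase) activates pro-Mmp2 (gelatinase A) with the help of Timp2. Mmp2 (ENSMUSG00000031740, chromosome 8 from 92827328 to 92853417) had 6196, 6426 and 6203 normalized counts in control mimic replicates 1, 2 and 3 and 6549, 5013 and 7027 in the miR-19a/19b mimic hearts, in that order. The control hearts lay close together (6275 ± 131, SD, n = 3), while the mimic hearts lay on both sides of them (6196 ± 1053). The fold change was -0.03 on the log2 scale (standard error 0.14, 95% interval -0.36 to 0.29).

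Mmp14 (ENSMUSG00000000957, chromosome 14 from 54431612 to 54441265) had 13319, 11443 and 13724 normalized counts in the control hearts and 12429, 11429 and 19826 in the mimic hearts, in the order of their replicate numbers. Mimic replicate 3 stood 1.66-fold above the mean of the other mimic hearts, which lay within or next to the control range. The log2 fold change of 0.14 (standard error 0.21, interval -0.34 to 0.63) was -0.10 without mimic replicate 3.

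Timp2, the inhibitor that also takes part in this activation, was among the steadiest members. It had 6711, 8071 and 7402 normalized counts in the control hearts and 7736, 6530 and 8309 in the mimic hearts (ENSMUSG00000017466, chromosome 11 from 118301069 to 118355740). Its highest heart was 1.27-fold above its lowest, with both in the mimic group. The log2 fold change was 0.02 (standard error 0.14, interval -0.29 to 0.33), so for this holder of the 8-mer, the interval leaves room for a mean in the mimic hearts between 0.819 and 1.26 times that of the controls.

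Mmp8 and Mmp9 are stored in neutrophil granules, Mmp8 as neutrophil collagenase and Mmp9 as gelatinase B, which macrophages also make. Mmp8 (ENSMUSG00000005800, chromosome 9 from 7558429 to 7568486) had 199, 263 and 174 normalized counts in the control hearts and 102, 159 and 194 in the mimic hearts. Of the 10 members it had the fold change furthest from 0 and the smallest unadjusted p-value. The means were 212 ± 46.3 and 152 ± 46.1 (SD, n = 3 hearts each), a log2 fold change of -0.51 (standard error 0.25, interval -1.07 to 0.05, limma unadjusted p = 0.0708). Mimic replicates 1 and 2 lay below every control heart and mimic replicate 3 lay among them. Leaving out any 1 heart kept the log2 fold change between -0.71 and -0.25.

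Mmp9 (ENSMUSG00000017737, chromosome 2 from 164940780 to 164955850) had 732, 522 and 375 normalized counts in the control hearts. In the mimic hearts it had 311, 432 and 1042, so that both the lowest and the highest heart of the study carried the mimics, 3.35-fold apart. The log2 fold change of -0.01 (standard error 0.41, interval -0.93 to 0.91) was -0.51 without mimic replicate 3 and 0.36 without mimic replicate 1. Its interval spans a range from 0.524 to 1.88 times the control level.

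Mmp3, or stromelysin 1, is made by fibroblasts and can activate other proenzymes of the family. Its normalized counts (ENSMUSG00000043613, chromosome 9 from 7445822 to 7455972) were 420, 420 and 221 in the control hearts and 202, 484 and 356 in the mimic hearts. Each group held 1 heart near 200 and hearts near or above 350, and the log2 fold change was -0.05 (standard error 0.34, interval -0.82 to 0.71).

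Mmp12, the elastase of macrophages, had 645, 882 and 511 normalized counts in the control hearts and 485, 784 and 619 in the mimic hearts (ENSMUSG00000049723, chromosome 9 from 7344381 to 7369499). Mimic replicate 1 was the lowest heart, and the log2 fold change of Mmp12 was -0.10 (standard error 0.22, interval -0.61 to 0.40).

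Timp1, the inducible inhibitor, was the most abundant transcript of the set per kilobase. It had 7536, 5400 and 5159 normalized counts in the control hearts and 4241, 6395 and 6997 in the mimic hearts (ENSMUSG00000001131, chromosome X from 20870166 to 20874735). The control replicate 1 and mimic replicate 1 hearts were the extremes, 1.78-fold apart. This gave a log2 fold change of -0.05 (standard error 0.21, interval -0.53 to 0.44).

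Timp3, which binds to the matrix and also inhibits Adam17 and aggrecanases, was even in 5 of the 6 hearts. It had 3813, 3497 and 3936 normalized counts in the control hearts, 4430 and 3730 in mimic replicates 1 and 2, and 2242 in mimic replicate 3 (ENSMUSG00000020044, chromosome 10 from 86300372 to 86349506). The last was 0.550 times the mean of the other mimic hearts. The log2 fold change of -0.17 (standard error 0.22, interval -0.67 to 0.33) was 0.12 without mimic replicate 3. It was -0.37 without mimic replicate 1 and -0.25 without mimic replicate 2.

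Timp4, the inhibitor with the most restricted expression and known for its presence in the heart, varied most among the 10 members, 3.67-fold from the lowest heart to the highest. It had 480, 263 and 496 normalized counts in the control hearts and 808, 764 and 220 in the mimic hearts (ENSMUSG00000030317, chromosome 6 from 115241892 to 115252205). Mimic replicates 1 and 2 stood above every control heart and mimic replicate 3 below every one. Over all 6 hearts the log2 fold change was 0.37 (standard error 0.47, interval -0.68 to 1.43). It was 0.05 without mimic replicate 1 and 0.09 without mimic replicate 2, and was not called in either fit. Without mimic replicate 3, the lowest heart, it was 0.98 (standard error 0.22, limma adjusted p = 0.0430). Timp4 was the only member called in any of the fits that left out a heart, and only in this last one. In that fit 1.81% of the tested genes were called higher and 0.774% lower, and of the members 1 was called higher and 0 lower. At an unadjusted p-value under 0.05 it had 8.39% of genes higher, with 1 member (Timp4), and 6.08% lower, with 2 members (Mmp8 and Mmp9).

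**Figure D3:**
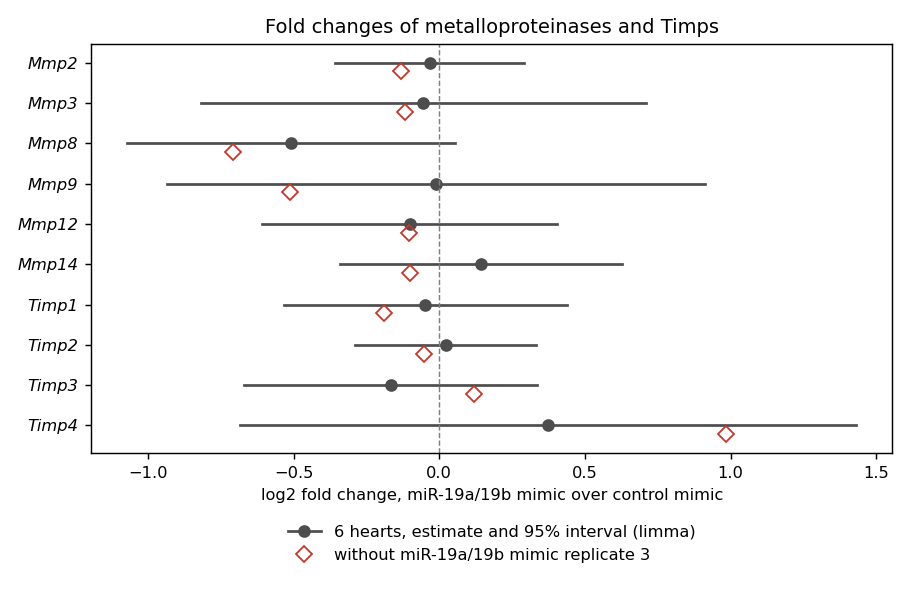
Log2 fold changes of the 10 members, miR-19a/19b mimic over control mimic, as estimates from 6 hearts with 95% intervals from limma (grey) and as estimates without miR-19a/19b mimic replicate 3 (red diamonds). Every grey interval spans 0, and the diamonds lie on the other side of 0 for Mmp14, Timp2 and Timp3 and move furthest for Timp4 (0.98) and Mmp9 (-0.51).

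The mimic hearts held most of the extreme values. Mimic replicate 1 was the lowest heart for 5 members (Mmp3, Mmp8, Mmp9, Mmp12 and Timp1), against 17.3% of the tested genes, and the highest for 2 (Timp3 and Timp4), against 19.7%. It was thus at one end or the other for 7 of 10 members and for 37.1% of genes. Mimic replicate 3 was the highest heart for 4 members, against 22.7% of genes, and the lowest for 2, against 23.2%, or 6 of 10 at either end against 45.8%. Mimic replicate 2 was the lowest heart for 3 members (15.1% of genes) and the highest for 1 (15.5%), or 4 at either end (30.6%).

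These extremes came alongside marker genes of different cell types. In bulk tissue, fewer cells of a type and less RNA per cell cannot be told apart. Ordered by Timp4, the hearts fell in the same order as by the summed level of 8 cardiomyocyte markers: mimic replicates 1 and 2, control replicates 3, 1 and 2, then mimic replicate 3. The level of Timp4 per 1000 of the cardiomyocyte sum was 0.453, 0.293 and 0.427 in the control hearts and 0.520, 0.554 and 0.403 in the mimic hearts, a range of 1.89-fold beside 3.67-fold for Timp4 alone. For Timp3, the range over hearts was 1.98-fold alone and 1.51-fold per cardiomyocyte sum. All 8 cardiomyocyte markers were detected, and the most abundant were Actc1 (78985 to 202840 normalized counts) and Myh6.

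The sum of 11 neutrophil markers ran from 457 per kilobase in mimic replicate 1 to 1955 in mimic replicate 3, with 1154 to 1567 in the control hearts. Mmp9 was lowest and highest in the same hearts, which were also the lowest and the highest by the sum of macrophage markers. Mmp8 shared the lowest heart, while its highest was control replicate 2. Per 1000 of the neutrophil sum, Mmp8 was between 40.4 (mimic replicate 3) and 91.3 (mimic replicate 1), a range of 2.26-fold beside 2.58-fold alone. On the same measure Mmp9 was between 91.7 (control replicate 3) and 192 (mimic replicate 1), or 2.10-fold beside 3.35-fold alone. S100a9, which neutrophils carry in abundance, had 391, 241 and 257 normalized counts in the control hearts and 95.8, 212 and 513 in the mimic hearts, and S100a8, its partner, had between 72.1 and 345. Retnlg was the one neutrophil marker at an unadjusted p-value under 0.05, with 48.6, 32.2 and 25.2 normalized counts in the control hearts and 3.23, 23.7 and 16.4 in the mimic hearts (log2 fold change -1.52, limma unadjusted p = 0.0341, adjusted p = 0.9996). Of the 11 listed markers, Ly6g reached at most 3.09 and Elane at most 3.90 normalized counts in any heart. A fold change below 0 was found for 8 of the 10 neutrophil markers tested, and for 10398 of all 21126 genes tested. Of these 8 markers, Ngp, Camp and Ltf reached at most 22.4, 7.47 and 21.5 normalized counts in any heart.

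For macrophages, the sum of 10 markers was between 25600 and 32730 per kilobase in the control hearts and between 22330 and 35870 in the mimic hearts, lowest in mimic replicate 1, as was Mmp12. The sum was highest in mimic replicate 3, where Mmp12 was the fourth of the 6 hearts. The most abundant of them, C1qa (10243 to 14390 normalized counts) and Lgals3 (7366 to 15699), overlapped between the groups. Ccr2, the chemokine receptor of recruited monocytes, was the marker with the smallest p-value, with 2525, 2652 and 2079 normalized counts in the control hearts and 1489, 1593 and 1942 in the mimic hearts (log2 fold change -0.53, limma unadjusted p = 0.00390, adjusted p = 0.886). Mmp12 per 1000 of the macrophage sum ranged from 2.38 to 4.17, or 1.75-fold beside 1.82-fold for Mmp12 alone.

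The sum of 9 fibroblast markers, led by Col1a1 and Col3a1, was highest in mimic replicate 3 at 99880 per kilobase and lowest in mimic replicate 2 at 63700, with 72440 to 87490 in the control hearts. Mmp2 and Mmp14 had their highest and lowest values in the same hearts, as did Timp2. Col1a1 and Col3a1, with means of 45036 and 18279 per kilobase, made up most of this sum. Of the single markers, Col1a1, Pdgfra and Thy1 shared both extremes, while Col3a1, Postn, Lum, Tcf21 and Ddr2 did not. Dcn went the other way, highest in mimic replicate 2 (12874 normalized counts) and lowest in mimic replicate 3 (10537). Per 1000 of the fibroblast sum, Mmp2 was between 23.2 and 28.2, a range of 1.22-fold, and Mmp14 between 33.4 and 46.2, a range of 1.38-fold. Mmp3 and Timp1 did not follow this sum, with ranges of 2.999-fold and 1.92-fold per fibroblast sum against 2.39-fold and 1.78-fold alone. The 5 endothelial markers, led by Cdh5 (6481 to 9334 normalized counts) and Pecam1 (5829 to 7414), summed to 3914 to 5184 per kilobase in the control hearts and 4398 to 4677 in the mimic hearts. The part of any cell type in the differences between hearts was not tested.

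**Figure D4:**
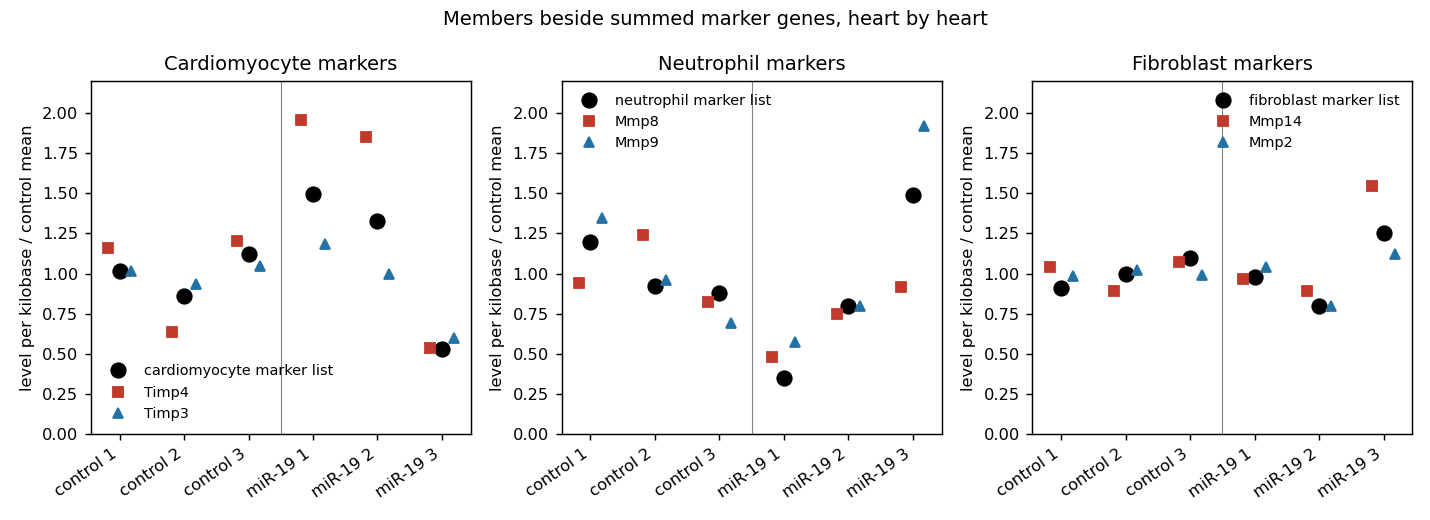
Level per kilobase of summed cell type markers (black circles) and of 2 members each (red squares and blue triangles) in every heart, divided by the mean of the 3 control mimic hearts, on linear axes from 0. Timp4 and Timp3 are lowest with the cardiomyocyte markers in miR-19a/19b mimic replicate 3. Mmp8 and Mmp9 are lowest with the neutrophil markers in mimic replicate 1, but only Mmp9 is also highest with them, in mimic replicate 3. Mmp14 and Mmp2 are highest with the fibroblast markers in mimic replicate 3.

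Mmp3, Mmp8 and Mmp12 belong to a cluster of 9 Mmp genes in the table on chromosome 9, which spans 427 kb from 7272514 to 7699585 on GRCm38. Per kilobase, Mmp3, Mmp12 and Mmp8 had the highest means of the cluster over the 6 hearts, at 195, 90.4 and 74.1. Mmp27 followed at 32.5 per kilobase, Mmp13, another collagenase, at 13.9, Mmp10 at 2.68 and Mmp7 at 1.14, while Mmp1b and Mmp20 did not pass the filter.

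AP-1, a factor known to switch on many metalloproteinase genes in injury, binds the letters TGANTCA, which read the same on both strands. Of 32851 RefSeq promoter windows (GRCm38.p6, 250 bases before to 50 after a start), 7.81% held them. Windows were given for 8 of the members, 9 windows in all, and those of Mmp2 and Mmp9 were not given. The letters were found in 2 of the 9 windows, those of Mmp3 and of 1 of the Mmp12 starts, and the TATA letters TATAAA were found on either strand in 3 of 9, against 13.6% of all windows. The AP-1 matches are shown for these neighbouring genes with 10 bases on either side and the match in capitals, both on the plus strand.
Mmp3, position -46 from the start (chr9:7445776-7445782): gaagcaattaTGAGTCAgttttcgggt
Mmp12, position -44 from the start (chr9:7347330-7347336): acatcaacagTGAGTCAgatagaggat
A match is no measure of binding.

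Timp1, Timp3 and Timp4 each lie inside a synapsin gene on the opposite strand, Syn1, Syn3 and Syn2 in that order. The sources used here do not state whether reads were counted by strand, so reads of such a pair may not be told apart. Over all 6 hearts the synapsin genes had means of 60.3 normalized counts for Syn1, 12.5 for Syn3 and 92.9 for Syn2. These were 1.01% of the mean of Timp1, 0.347% of that of Timp3 and 18.4% of that of Timp4 (505 normalized counts), without regard to gene length. Cep295nl, inside Timp2 on the same strand, averaged 19.8. Gm17482, which also spans Timp4 on the opposite strand, was at 0.340, and Mmp1b, which overlaps the end of Mmp12 on the opposite strand, at 0.491. Timp3 transcripts align to Syn3 over 1733 bases at 100% identity, and Mmp12 transcripts to Mmp1b over 160 bases at 100%. Mmp3 transcripts align to Gm15242 over 284 bases at 95.4% identity. Some reads of these members could thus be shared.

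Of 17 other Mmp genes listed, 16 were in the table and 14 were tested, of which 4 had a fold change below 0 and 10 above, with a median of 0.12 on the log2 scale and 0 called. Mmp24, a membrane-type enzyme, was the one at an unadjusted p-value under 0.05, with 57.5, 41.0 and 57.0 normalized counts in the control hearts and 36.6, 25.8 and 26.8 in the mimic hearts (log2 fold change -0.78, standard error 0.25, limma unadjusted p = 0.0121, adjusted p = 0.9996). Its groups did not overlap, which made 1 of the 14 genes, near the 5.3% of all tested genes that were separate with the mimic hearts lower. The most abundant per kilobase were Mmp23, with 1562 to 2235 normalized counts, and Mmp15, a membrane-type enzyme with 1222, 1011 and 1229 in the control hearts and 1688, 1640 and 1151 in the mimic hearts (log2 fold change 0.36, limma unadjusted p = 0.0540).

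Of 15 genes for activators, receptors and other inhibitors, such as Reck, 14 were tested, 7 below 0 and 7 above, with 0 called by limma and 0 at its unadjusted p-value under 0.05. Bsg, the surface protein that induces metalloproteinases, had 12073 to 18822 normalized counts and a log2 fold change of 0.04.

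Among 17 Adam and Adamts genes, related proteases of which Timp3 can inhibit some, all were tested, 11 were below 0 and 6 above, and 0 were called. The groups were fully separate, with the mimic hearts lower, for 2 of the 17, against 5.3% of all tested genes. They were Adam9 (5956, 5922 and 6323 against 5399, 4720 and 5502 normalized counts, log2 fold change -0.22, limma unadjusted p = 0.0788), the most abundant of the list per kilobase, and Adamts20. Adamts20 had 59.7, 87.8 and 76.6 normalized counts in the control hearts and 48.4, 47.4 and 44.1 in the mimic hearts (log2 fold change -0.65, limma unadjusted p = 0.0116, adjusted p = 0.9996). Adam8, a protease of leukocytes, had 3743 to 6998 normalized counts, with the highest value in mimic replicate 3, as for Mmp9 and Mmp14.

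Of 17 matrix proteins that these enzymes cut or bind, 14 had a fold change below 0 and 3 above, with 0 called. Their median was -0.18. Of all 21126 tested genes, 10398 were below 0. The 17 genes were measured in the same 6 hearts and are not independent observations. For 4 of the 17 (Col4a1, Col4a2, Lama4 and Vcan, named after their values were seen), every mimic heart lay below every control heart, as for 5.3% of all tested genes. Col4a1, a basement membrane collagen, was the one at an unadjusted p-value under 0.05 (log2 fold change -0.45, limma unadjusted p = 0.0454, adjusted p = 0.9996). Col1a1, the main scar collagen, had between 221270 and 412280 normalized counts and Sparc between 100060 and 131130, both highest in mimic replicate 3, as were Mmp14 and Mmp2, though Sparc was nearly as high in control replicate 3 (130910).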

How the data were processed

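Polyadenylated RNA was sequenced from both ends. The authors removed reads with adapters, unknown bases or low quality, aligned the rest with STAR (2.5.1b) and counted them per gene with HTSeq (0.6.0). The submitters' processing notes name mm9, but 82.7% of the identifiers shared with GENCODE M21 have the same start and end on GRCm38, so coordinates are given on GRCm38. The deposited signal per heart is a read count scaled by the size factor of its library. In each library 100% of values were whole multiples of 1 read (tolerance 0.01), so reads were recovered. The authors' own fold changes and p-values, and a second table of genes chosen by them, were not used.

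Groups were compared with limma 3.58.1 (R 4.3.3, trended prior) on log2(value + 1) for genes with a mean of at least 1, with Benjamini-Hochberg adjustment over all of them. A fold change on this scale understates that of low genes. DESeq2 1.42.0 and edgeR 4.0.16 on recovered reads were alternatives, as were TMM scaling, a pseudocount of 0.1, no filter, a minimum mean of 10, the replicate number as a block and leaving out each heart. Scripts were tested on simulated reads. The paper describes the replicates as biological. Replicates differed by more than counting error (chi-square per degree of freedom from 10.3 to 135). Members and gene lists were chosen with earlier results of these data known. From the other lists, the genes named are those at an unadjusted p-value under 0.05 and the most abundant pair per kilobase, and from the cell type lists the most abundant pair. A gene that this rule names is not reported here. Ccr2, Retnlg, Ly6g, Elane, Ngp, Camp and Ltf were named after their values were seen. So were the fibroblast markers beyond the most abundant pair and the neighbours on chromosome 9. Overlapping genes are from GENCODE M21, near-identical transcripts from BLAST.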

Additional observations from a re-analysis of the deposited data

How the results depend on the processing

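Of 140 refits of the 10 members under other settings, 120 kept the direction and the side of the threshold, 19 changed sign and 1 passed the threshold (Timp4 without miR-19a/19b mimic replicate 3). Mmp9 changed sign on recovered reads, to log2 fold changes of 0.13 with DESeq2, 0.14 with edgeR's quasi-likelihood test and 0.14 with its exact test, and no other member changed sign outside the fits that left out a heart. In those, the log2 fold changes ran from -0.13 to 0.11 for Mmp2, from -0.36 to 0.29 for Mmp3, from -0.71 to -0.25 for Mmp8, from -0.51 to 0.36 for Mmp9, from -0.29 to 0.10 for Mmp12, from -0.10 to 0.30 for Mmp14, from -0.19 to 0.17 for Timp1, from -0.053 to 0.12 for Timp2, from -0.37 to 0.12 for Timp3 and from 0.05 to 0.98 for Timp4. The cause was not tested.

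Over all genes, 0 lower and 0 higher became 27 and 1 with DESeq2 and 28 and 2 with edgeR's exact test. With each heart left out they ranged from 0 to 164 lower and from 0 to 383 higher (164 and 383 with mimic replicate 3 left out), and members called ranged from 0 to 0 lower and from 0 to 1 higher. Same-numbered hearts did not deviate alike from their group means (correlations of -0.02, -0.17 and -0.29). Differently numbered hearts had correlations from -0.24 to 0.31, so 3 hearts a group cannot show whether the numbers mark pairs. With the replicate number as a block, 0 genes were called lower and 0 higher, 0 members among them. With 3 hearts a group, intervals of single members reached from 0.476 to 1.04 times the control level for Mmp8 and from 0.623 to 2.70 times for Timp4.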
